A study of Mus musculus with 78 samples.

Results

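Total RNA of mouse CD8+ T cells kept without arginine was compared directly with total RNA of the same kind of cells kept without the branched-chain amino acids (BCAA) leucine, isoleucine and valine. The comparison takes 3 No Arginine and 3 No BCAA libraries, 6 of the 78 libraries of the series, and every one of the 14695 genes of the deposited count table under its name there. Of these genes, 14246 had a symbol and 449 only an identifier. After a filter on low counts, 12642 genes were tested.

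The cells were primary CD8+ T cells on day 3 of activation, taken from C57BL/6J mice (spleen and lymph node). For 3 h they were cultured in medium without arginine (No Arginine), in medium without BCAA (No BCAA), or in Control medium. Each group had 3 numbered libraries, and all groups share the strain, the activation and the 3 h culture. The total RNA was the input part of a cleared detergent lysate made with cycloheximide, and the rest of that lysate gave the polysome RNA used here beside it. The labels do not say whether replicates were separate cultures or animals, so p-values measure the spread between libraries only. For total RNA that spread was estimated over all 18 libraries of 6 nutrient groups together, and it enters each p-value and SE.

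A cell that lacks an amino acid accumulates uncharged tRNA, which activates the kinase GCN2. GCN2 phosphorylates the initiation factor eIF2α, general translation slows, and the transcription factor ATF4 is made and switches on genes for amino acid transport, synthesis and tRNA charging, together with the stress factors CHOP (gene Ddit3) and ATF3. This is the integrated stress response (ISR). A second sensor system acts on the kinase mTORC1, which learns of leucine through Sestrins and of arginine through CASTOR1, and promotes ribosome production, lipid synthesis and growth of activated T cells.

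Depth was 25619143, 15144663 and 21004244 counts in No Arginine replicates 1 to 3, against 22815417, 23270269 and 25701946 in No BCAA. No Arginine replicate 2 was the shallowest library and stood apart. Mitochondrial rRNA took 4.98% of its counts, against 1.74% and 1.56% in the other No Arginine libraries and 1.39% to 1.64% in No BCAA. The nuclear 18S entry Rn18s-rs5 had 293, 1184 and 226 CPM (each count relative to its library's TMM-scaled total) without arginine and 169, 142 and 184 CPM without BCAA, and Lars2, whose entry is known to collect rRNA reads, had 16.4, 137 and 8.88 CPM without arginine and 13.1, 10.3 and 11.1 CPM without BCAA. Counts of calls are therefore given with and without this library where they differ. Of the CD8 markers, Cd8a and Cd8b1 together had 204 to 229 CPM without arginine, 188 to 196 without BCAA and 188 to 212 in Control. Summed B cell markers (3 of 11 analysed here) had 21.4 to 25.1 CPM without arginine and 22.5 to 22.7 CPM without BCAA, and the myeloid marker Cd68 had 9.73 to 12.2 CPM without arginine and 9.11 to 12.6 CPM without BCAA. Summed dendritic, erythroid and platelet, and stromal markers analysed here had between 0.626 and 9.61 CPM per list in these 6 libraries. The NK marker Klrk1 and the CD4 lineage marker Zbtb7b are described with the T cell genes.

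The cells without arginine and the cells without BCAA differed in 2567 genes (edgeR quasi-likelihood test, Benjamini-Hochberg adjusted p under 0.05), 20.3% of those tested. Of these, 1045 (8.27%) were higher and 1522 (12%) lower without arginine than without BCAA. Most differences were small, with a median log2 fold change of 0.398 among the genes called higher and -0.393 among those called lower, and over all genes tested the median was 0.00841. Beyond 2-fold, 72 genes were higher and 51 lower, and of these 9 higher and 28 lower genes had a mean of 5 CPM or more. Of those 9, Lars2, Rn18s-rs5, Mir6236 and mt-Rnr1 are rRNA genes or entries known to collect rRNA reads, and all 4 lost their call without No Arginine replicate 2. All 3 No Arginine libraries lay above all 3 No BCAA libraries for 981 of the genes called higher and below them for 1485 of those called lower, where 17.2% and 19.9% of all genes tested lay above or below in this way. Without No Arginine replicate 2 the counts were 677 higher and 1169 lower. Without No Arginine replicate 1 they were 666 and 1081, and without No BCAA replicate 1 they were 628 and 1140. Below, values in brackets are log2 fold changes in total RNA ± SE, No Arginine over No BCAA, with n = 3 libraries in each group. A gene is named as higher or lower only where its adjusted p was under 0.05 by the edgeR test, and a call is described as fragile where leaving out 1 of the 6 libraries ended it. Genes named for the largest fold changes or lowest p-values were also required to have groups that did not overlap. Where such genes are described below as separated, that is not a separate result.

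**Figure D1:**
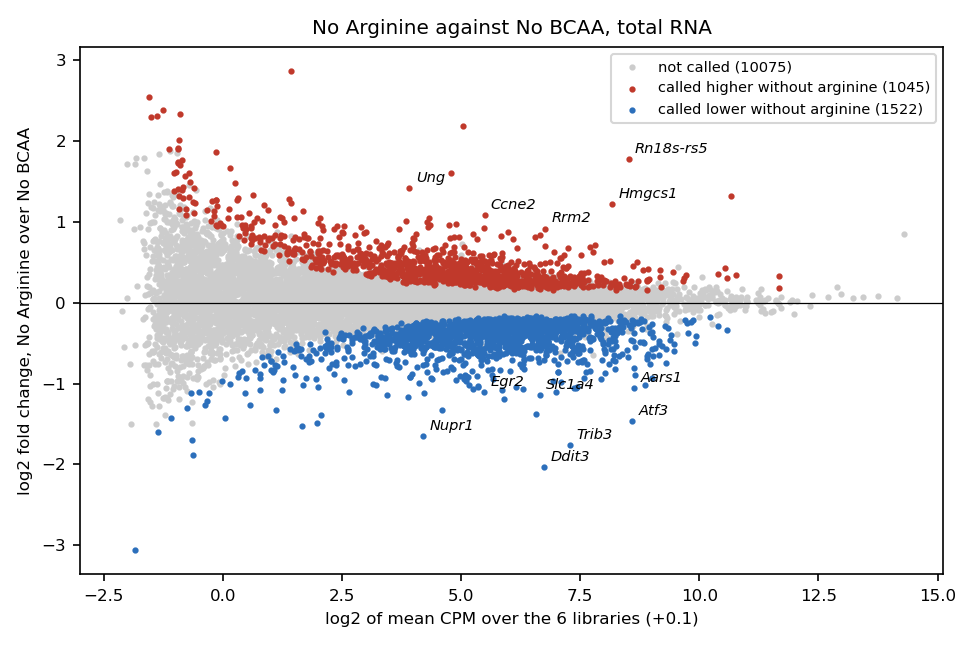
Each point is a tested gene, with the log2 of its mean CPM over the 6 libraries (plus 0.1) on the horizontal axis and its log2 fold change, No Arginine over No BCAA, on the vertical axis. Red points are the 1045 genes called higher without arginine, blue points the 1522 called lower and grey points the rest, and among abundant genes the widest separations are on the lower side, led by Ddit3, Trib3 and Nupr1.

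Stress regulators of the ISR were among the widest differences, and nearly all of them were lower without arginine than without BCAA. Of 15 ISR transcription factors and regulators tested, 13 were lower and 0 higher, with a median log2 fold change of -1.17, against 12% lower among all genes. Ddit3, which encodes CHOP, a pro-apoptotic transcription factor, had 42.9, 43.5 and 40.2 CPM without arginine, against 169, 186 and 163 CPM without BCAA, so the groups were far apart. Its log2 fold change was -2.03 ± 0.07 (SE; adjusted p = 3.2e-14), a 4.09-fold lower level. Trib3, a pseudokinase that CHOP and ATF4 induce and that restrains ATF4, had 71.8, 70.5 and 70.7 CPM without arginine and 249.9, 242 and 229 CPM without BCAA (-1.76 ± 0.07, adjusted p = 5.1e-13). Atf3 had 208, 196 and 211 CPM without arginine and 567, 570.2 and 564 CPM without BCAA (-1.47 ± 0.05, adjusted p = 1.0e-13), and the libraries of each group lay within a narrow band. Nupr1, a small stress-induced chromatin protein, had 9.21, 9.68 and 7.79 CPM without arginine and 28.8, 27.2 and 27.4 CPM without BCAA (-1.65 ± 0.11).

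The 300-base promoter windows of 4 of these regulators and of the asparagine synthetase gene are shown because they hold the core letters of the C/EBP-ATF response element, through which ATF4 and its partners act. The windows run from 250 bases before to 50 after each transcription start, from RefSeq on GRCm38.p6, 5′ to 3′ on the gene's strand. Capitals mark TGATGNAA, where N is any base, either as written or as its reverse complement.
Trib3, chr2:152344011-152344310, minus strand: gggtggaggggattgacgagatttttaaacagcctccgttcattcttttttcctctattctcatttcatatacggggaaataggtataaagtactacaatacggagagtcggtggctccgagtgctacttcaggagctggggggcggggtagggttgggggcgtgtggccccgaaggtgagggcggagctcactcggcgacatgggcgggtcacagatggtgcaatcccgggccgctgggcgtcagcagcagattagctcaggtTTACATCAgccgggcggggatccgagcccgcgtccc
Chac1, chr2:119350992-119351291, plus strand: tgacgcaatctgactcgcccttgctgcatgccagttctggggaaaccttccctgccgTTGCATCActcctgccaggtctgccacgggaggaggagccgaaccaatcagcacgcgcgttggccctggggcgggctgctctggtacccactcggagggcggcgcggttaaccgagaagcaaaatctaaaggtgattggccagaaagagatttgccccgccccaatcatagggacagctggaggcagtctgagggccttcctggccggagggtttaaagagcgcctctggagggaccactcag
Atf3, chr1:191183284-191183583, minus strand: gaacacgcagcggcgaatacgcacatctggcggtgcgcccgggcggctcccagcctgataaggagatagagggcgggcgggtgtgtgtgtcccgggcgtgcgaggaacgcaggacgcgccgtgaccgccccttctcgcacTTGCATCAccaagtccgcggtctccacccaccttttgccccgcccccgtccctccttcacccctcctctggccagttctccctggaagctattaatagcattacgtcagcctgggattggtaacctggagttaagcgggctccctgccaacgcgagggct
Nupr1, chr7:126625421-126625720, minus strand: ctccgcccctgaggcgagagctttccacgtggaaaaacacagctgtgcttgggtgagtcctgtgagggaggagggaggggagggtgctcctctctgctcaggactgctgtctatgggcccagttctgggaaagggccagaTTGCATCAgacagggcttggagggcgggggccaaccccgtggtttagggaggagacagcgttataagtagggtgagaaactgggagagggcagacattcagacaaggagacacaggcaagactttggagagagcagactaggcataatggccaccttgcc
Asns, chr6:7693160-7693459, minus strand: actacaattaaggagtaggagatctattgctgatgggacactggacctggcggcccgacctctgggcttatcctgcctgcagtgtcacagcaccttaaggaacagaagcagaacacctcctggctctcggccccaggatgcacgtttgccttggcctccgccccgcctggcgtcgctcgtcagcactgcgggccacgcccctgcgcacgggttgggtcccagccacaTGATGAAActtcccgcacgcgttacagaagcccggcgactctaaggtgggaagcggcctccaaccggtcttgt

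The match began 14 bases after the start in Trib3, 23 bases before it in Asns, 110 before it in both Atf3 and Nupr1 and 193 before it in Chac1. Among the ISR regulators, 14 of 15 had a window in the table and 6 of these (42.9%) held the letters on either strand, the other two being Vldlr and Jdp2. Over all 27025 genes of the table the share was 4.51%, and over the 8899 tested genes with a window it was 2.71%. Ddit3, Ppp1r15a, Sesn2, Atf5 and Cebpb had no such letters in these windows, which says nothing of sites elsewhere. A match is a run of letters and was not tested as a binding site.

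Ppp1r15a, which encodes GADD34, the phosphatase subunit that reverses eIF2α phosphorylation, had 51.2, 56.3 and 52.5 CPM without arginine, against 136, 143 and 134 CPM without BCAA (-1.37 ± 0.06, adjusted p = 4.4e-12). Sesn2, a stress-induced Sestrin that binds leucine and holds back mTORC1, had 104, 119 and 99.3 CPM without arginine and 218, 245 and 208 CPM without BCAA (-1.06 ± 0.08, adjusted p = 4.1e-09). Neither gene's groups overlapped. The leucine zipper factors Atf5 (-1.32 ± 0.11), Cebpb (-1.17 ± 0.15), Jdp2 (-1.38 ± 0.16) and Cebpg (-0.72 ± 0.05), the lipoprotein receptor gene Vldlr (-0.89 ± 0.08) and Eif4ebp1 (-0.59 ± 0.08), which encodes the translation repressor 4E-BP1, were lower as well. Atf4 itself, controlled mainly by translation, had 843, 813 and 845 CPM without arginine and 992, 999.8 and 959.9 CPM without BCAA, a smaller but called difference of -0.24 ± 0.06 (adjusted p = 0.0052).

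Chac1, which encodes a glutathione-degrading enzyme that ATF4 induces, did not follow the others. It had 52, 53.2 and 49.1 CPM without arginine, against 58.6, 58.7 and 52.3 CPM without BCAA and 17.7, 20.7 and 17.8 CPM in Control. The deprived groups overlapped, and the log2 fold change between them was -0.14 ± 0.09 (adjusted p = 0.34). Set against Control, Chac1 was higher in both, by 1.46 ± 0.10 without arginine and 1.59 ± 0.10 without BCAA. The remaining uncalled member, the mTORC1 inhibitor gene Ddit4, had 177, 179 and 155 CPM without arginine and 188, 219 and 153 CPM without BCAA.

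The same regulators can be placed against the 3 Control libraries, which both deprivations share as their reference, so the values below are given side by side and not as separate evidence. Over all genes, 9.24% differed between No Arginine and Control (5.1% higher, 4.14% lower) and 30.1% between No BCAA and Control (16.4% higher, 13.6% lower). The ISR regulators had a median log2 fold change of 0.639 without arginine, with 12 of 15 higher, and of 1.91 without BCAA, with 14 of 15 higher. Ddit3 stood 1.24 ± 0.07 above Control without arginine and 3.27 ± 0.07 without BCAA, and Trib3 1.11 ± 0.07 without arginine and 2.86 ± 0.08 without BCAA. The members not called without arginine were Atf5 (0.23 ± 0.11), Jdp2 (0.53 ± 0.19) and Ddit4 (0.06 ± 0.10), and without BCAA these stood at 1.55 ± 0.11, 1.91 ± 0.16 and 0.19 ± 0.10.

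**Figure D2:**
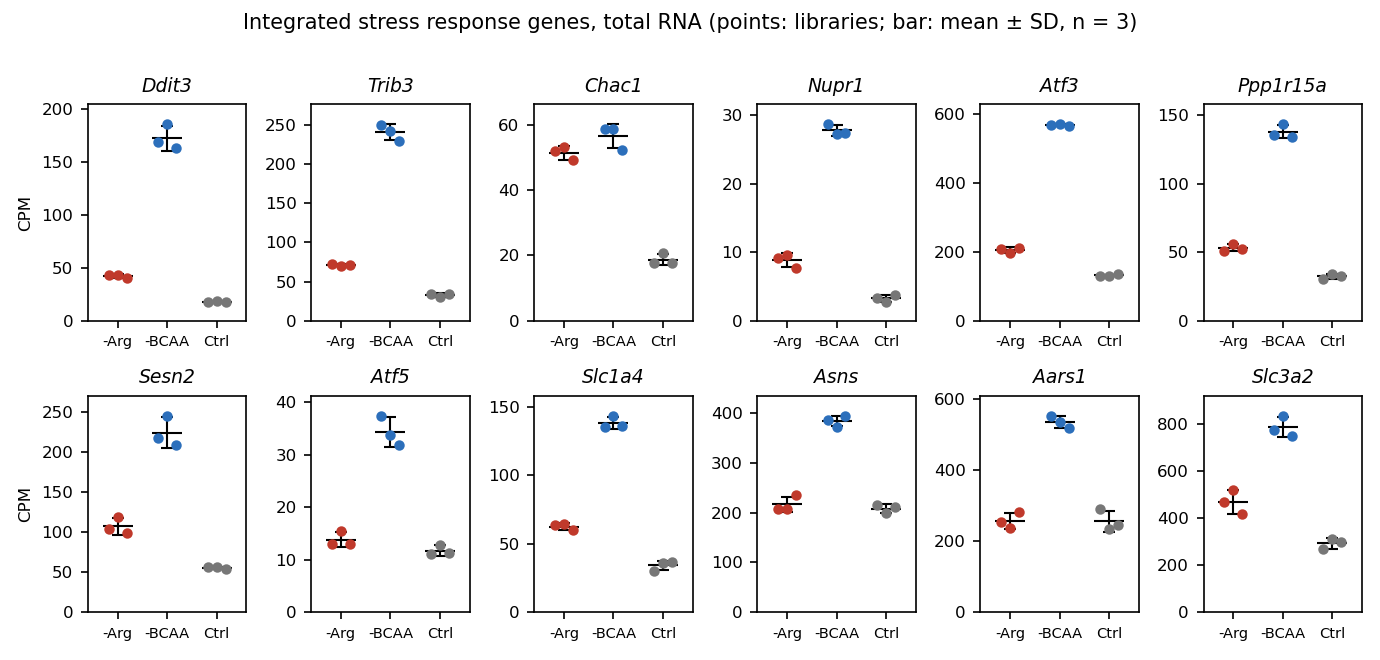
CPM in total RNA of 12 genes of the integrated stress response, with 1 point per library and a bar for the mean ± SD (n = 3) in No Arginine (-Arg), No BCAA (-BCAA) and Control (Ctrl). In 11 of the panels the No Arginine points lie below every No BCAA point, while the Chac1 points overlap at 49.1 to 53.2 and 52.3 to 58.7 CPM. Genes named for fold change or p-value were chosen with separated groups, so for them this separation is not a separate result.

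Amino acid transporter genes, several of which ATF4 induces, were lower without arginine in 7 of 13 cases and higher in 0. That was 53.8% lower, beside 12% over all genes, and the median log2 fold change was -0.298. Slc1a4, a carrier of neutral amino acids including serine and alanine, had 63.5, 64.5 and 60 CPM without arginine, against 135, 144 and 136 CPM without BCAA (-1.14 ± 0.08, adjusted p = 1.7e-09). The glycine carrier gene Slc6a9 (-0.91 ± 0.11) and Slc3a2 (-0.75 ± 0.09), which encodes the heavy chain CD98 shared by several exchangers, also differed. Slc3a2's light-chain partner Slc7a5, the LAT1 carrier through which leucine enters T cells, had 769, 846 and 662 CPM without arginine and 1002, 1058 and 903 CPM without BCAA (-0.38 ± 0.08, adjusted p = 0.0024).

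The cationic amino acid carriers, which import arginine, were lower in the cells that lacked it than in those that lacked BCAA. Slc7a1, which encodes CAT1, had 305, 394 and 259 CPM without arginine, against 430.1, 459.6 and 423 CPM without BCAA (-0.46 ± 0.13, adjusted p = 0.018). The highest No Arginine library, replicate 2, came closest to the No BCAA libraries, and the call was lost without No Arginine replicate 1 or 3 or No BCAA replicate 2. Slc7a3, the related CAT3 gene, had 60.5, 59.5 and 55 CPM without arginine and 92.4, 102 and 102 CPM without BCAA (-0.76 ± 0.09, adjusted p = 2.7e-06). Both were above Control in both deprivations, Slc7a1 by 0.64 ± 0.13 without arginine and 1.09 ± 0.13 without BCAA and Slc7a3 by 0.39 ± 0.09 without arginine and 1.15 ± 0.09 without BCAA. Slc38a2, the SNAT2 carrier of small neutral amino acids, was the other called member (-0.30 ± 0.07).

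The enzymes of asparagine, proline and serine synthesis were lower without arginine in 8 of 9 cases and higher in 0. That was 88.9% lower, beside 12% over all genes, with a median of -0.532. Gpt2, a mitochondrial alanine aminotransferase, had 81.3, 85.9 and 81.5 CPM without arginine, against 163, 155 and 166 CPM without BCAA (-0.96 ± 0.06, adjusted p = 1.7e-09). Asns, asparagine synthetase and the classic ATF4 target whose window is shown above, had 207, 208 and 234 CPM without arginine, 385, 371 and 393 CPM without BCAA and 215, 198 and 211 CPM in Control. The No Arginine and Control libraries of Asns overlapped, and the difference between the deprivations was -0.82 ± 0.06 (adjusted p = 6.7e-09). The proline genes Aldh18a1 (-0.66 ± 0.06) and Pycr1 (-0.35 ± 0.09), the aspartate aminotransferase gene Got1 (-0.44 ± 0.05) and the serine genes Phgdh (-0.53 ± 0.07), Psat1 (-0.47 ± 0.06) and Psph (-0.63 ± 0.07) followed, with a fragile call for Pycr1. Against Control, 2 of the 9 were higher without arginine, Gpt2 by 0.49 and Aldh18a1 by 0.29, and 8 of the 9 were higher without BCAA.

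Folate enzymes that carry single-carbon units were lower in 5 of 10 cases (50%, beside 12% over all genes) and higher in 0. The mitochondrial enzymes Shmt2 (-0.55 ± 0.07), Mthfd2 (-0.49 ± 0.05), Mthfd1l (-0.54 ± 0.09) and Aldh1l2 (-0.79 ± 0.11) were lower without arginine. Of the uncalled members, cytosolic Shmt1 had 98.9, 95.9 and 109 CPM without arginine and 91.7, 95.2 and 95 CPM without BCAA (0.11 ± 0.06).

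The cytosolic aminoacyl-tRNA synthetases, which load tRNAs with amino acids, were raised above Control without BCAA and mostly not without arginine. Of 19 tested, 15 were lower without arginine than without BCAA (78.9%, beside 12% over all genes) and 0 higher, with a median of -0.469. Aars1, the alanine enzyme, had 253, 237 and 282 CPM without arginine, 553, 534 and 519 CPM without BCAA and 289.6, 234 and 245 CPM in Control. No Arginine and Control overlapped and No BCAA lay above both (-1.05 ± 0.08 between the deprivations, adjusted p = 1.6e-08). Nars1 for asparagine (-0.93 ± 0.08), Cars1 for cysteine (-0.93 ± 0.06), Tars1 for threonine (-0.87 ± 0.08) and Lars1 for leucine (-0.85 ± 0.16) were the next widest. Against Control, the list had a median of -0.0251 without arginine with 1 higher and 1 lower, and of 0.474 without BCAA with 13 higher and 0 lower.

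Among the synthetases of the missing amino acids, Lars1 was one of the 5 widest of the list and Rars1 and Vars1 were not, and that of isoleucine was not analysed here. Rars1, which charges arginine, had 151, 141 and 164 CPM without arginine, against 185, 160.2 and 182 CPM without BCAA (-0.21 ± 0.07, adjusted p = 0.032), with overlapping groups and a fragile call. Vars1, which charges valine, had 347, 405 and 317 CPM without arginine and 391, 414 and 356 CPM without BCAA (-0.12 ± 0.08, adjusted p = 0.32). Lars1 had 139, 116 and 168 CPM without arginine and 269.9, 233 and 262 CPM without BCAA, and its Control libraries, at 199, 116 and 132 CPM, were spread more widely than its No Arginine libraries.

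Genes that handle the missing amino acids themselves gave few calls. Of 13 genes of arginine and polyamine metabolism, 1 was lower (7.69%, beside 12% over all genes) and 0 were higher, while DESeq2, a minimum count of 50 and the replicate block each called 2 higher. The lower gene was Sat1, which encodes the acetylase that starts polyamine breakdown, with 78.1, 75.8 and 89.5 CPM without arginine and 103, 97.6 and 102 CPM without BCAA (-0.31 ± 0.09). Its call was lost without No Arginine replicate 1 or 2 or No BCAA replicate 1. Odc1, ornithine decarboxylase and the first step of polyamine synthesis, had 585, 544 and 603 CPM without arginine, 546, 520.2 and 522 CPM without BCAA and 694, 683 and 707 CPM in Control. The deprived groups of Odc1 overlapped (0.13 ± 0.05, adjusted p = 0.11).

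Of 20 genes of BCAA catabolism, 3 were lower and 2 higher without arginine, shares of 15% and 10% beside 12% and 8.27% over all genes. Bcat1, the cytosolic transaminase that takes the amino group from BCAA, had 141, 139 and 155 CPM without arginine, against 243, 234 and 235 CPM without BCAA and 145, 128 and 128 CPM in Control (-0.71 ± 0.06, adjusted p = 7.6e-08). Bcat2, its mitochondrial counterpart, was higher without arginine at 41.4, 55 and 44.3 CPM, against 38.3, 40.2 and 38.9 CPM without BCAA (0.25 ± 0.09, adjusted p = 0.042), and so was Bckdk, the kinase that switches off BCAA oxidation (0.27 ± 0.08). The calls of Bcat2 and Bckdk were both lost without No Arginine replicate 2, among other alternatives. Dbt, a subunit gene of the BCAA keto acid dehydrogenase, was lower (-0.22 ± 0.07), and its call was fragile.

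Regulators of amino acid sensing gave 4 lower (11.8%) and 3 higher (8.82%) of 34, close to the 12% and 8.27% over all genes, so the list as a whole did not stand apart and the members below are given as single genes. Sesn2 was the lowest. Its relative Sesn1 was higher without arginine, at 8.19, 8.24 and 10.5 CPM against 6.6, 5.38 and 5.79 CPM without BCAA (0.61 ± 0.13, adjusted p = 0.002), so these Sestrin genes differed in opposite directions. Fnip2, a folliculin partner that acts on the Rag GTPases, had 7.29, 6.4 and 8.88 CPM without arginine, 3.03, 4.25 and 4.5 CPM without BCAA and 13.6, 12.2 and 11.9 CPM in Control (0.94 ± 0.18, adjusted p = 8.3e-04). The kinase gene Mtor was higher (0.24 ± 0.07), and its activator Rheb (-0.30 ± 0.08) and the lysosomal adaptors Lamtor3 (-0.36 ± 0.09) and Rraga (-0.24 ± 0.08) were lower. The calls of Mtor and Rraga were fragile. The arginine sensor gene Castor1 had 25.2, 23.9 and 21.7 CPM without arginine and 19.9, 22.9 and 20.6 CPM without BCAA and was not called (0.16 ± 0.09).

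On the higher side, the cholesterol pathway stood out. Of 24 genes of cholesterol synthesis and uptake that SREBP2 controls, 19 were higher without arginine than without BCAA and 0 lower, beside 8.27% higher over all genes, and the median was 0.412. Hmgcs1, which makes the pathway's first committed intermediate, had 412, 356 and 443 CPM without arginine, against 176, 164 and 182 CPM without BCAA (1.22 ± 0.08, adjusted p = 1.7e-09), a 2.32-fold difference with no overlap. Its Control libraries, at 699, 588 and 602 CPM, were above both. The window of Hmgcs1 is shown because it was the most different member and holds the core of the sterol response element, TCACNCCAC with N any base, in capitals. It is from the same RefSeq table on GRCm38.p6.
Hmgcs1, chr13:119690101-119690400, plus strand: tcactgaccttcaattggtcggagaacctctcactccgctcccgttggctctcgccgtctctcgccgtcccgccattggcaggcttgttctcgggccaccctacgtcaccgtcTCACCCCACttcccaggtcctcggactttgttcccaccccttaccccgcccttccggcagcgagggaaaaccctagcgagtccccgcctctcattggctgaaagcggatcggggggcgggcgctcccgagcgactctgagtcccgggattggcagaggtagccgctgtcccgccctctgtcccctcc

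The match began 137 bases before the start. On either strand, 1.44% of the genes of the table held the letters in a window. Of the 17 genes of the cholesterol list that had a window, 1 did, Hmgcs1 itself. Those 17 are under 80% of the 24 members, so no share is read for the list. Hsd17b7, a sterol reductase, had 80, 81.6 and 83.3 CPM without arginine and 45, 41.5 and 47.4 CPM without BCAA (0.87 ± 0.07, adjusted p = 5.6e-09). Acat2, which joins acetyl-CoA units at the pathway's start, had 129.7, 123 and 134 CPM without arginine and 73.8, 69.7 and 73.5 CPM without BCAA (0.83 ± 0.06, adjusted p = 4.1e-09). Both sets of libraries were well separated. Fdps (0.83 ± 0.13), which makes farnesyl diphosphate, and the squalene epoxidase gene Sqle (0.59 ± 0.05) were higher as well. Srebf2, which encodes the factor itself, had overlapping groups at 270.1, 300.3 and 227 CPM without arginine and 231, 247 and 189 CPM without BCAA (0.26 ± 0.10, adjusted p = 0.08).

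Beside Control, the cholesterol list had a median of -0.0823 without arginine, with 8 of 24 lower and 0 higher, and of -0.552 without BCAA, with 20 of 24 lower and 0 higher. Hmgcs1 and Acat2 were below Control in both deprivations, Hmgcs1 at -0.64 ± 0.08 without arginine and -1.86 ± 0.08 without BCAA, and Acat2 at -0.53 ± 0.06 without arginine and -1.36 ± 0.06 without BCAA. Fatty acid synthesis genes under SREBP1 went the same way less widely, with 5 of 12 higher (41.7%, beside 8.27% over all genes) and 0 lower (median 0.192). These were Scd1 (0.49 ± 0.07), Elovl6 (0.48 ± 0.06), Fasn (0.40 ± 0.12), Fads2 (0.35 ± 0.07) and Fads1 (0.34 ± 0.08), enzymes that build, lengthen or desaturate fatty acids. The call of Fasn was lost without any of 4 libraries, No Arginine replicate 2 among them.

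**Figure D3:**
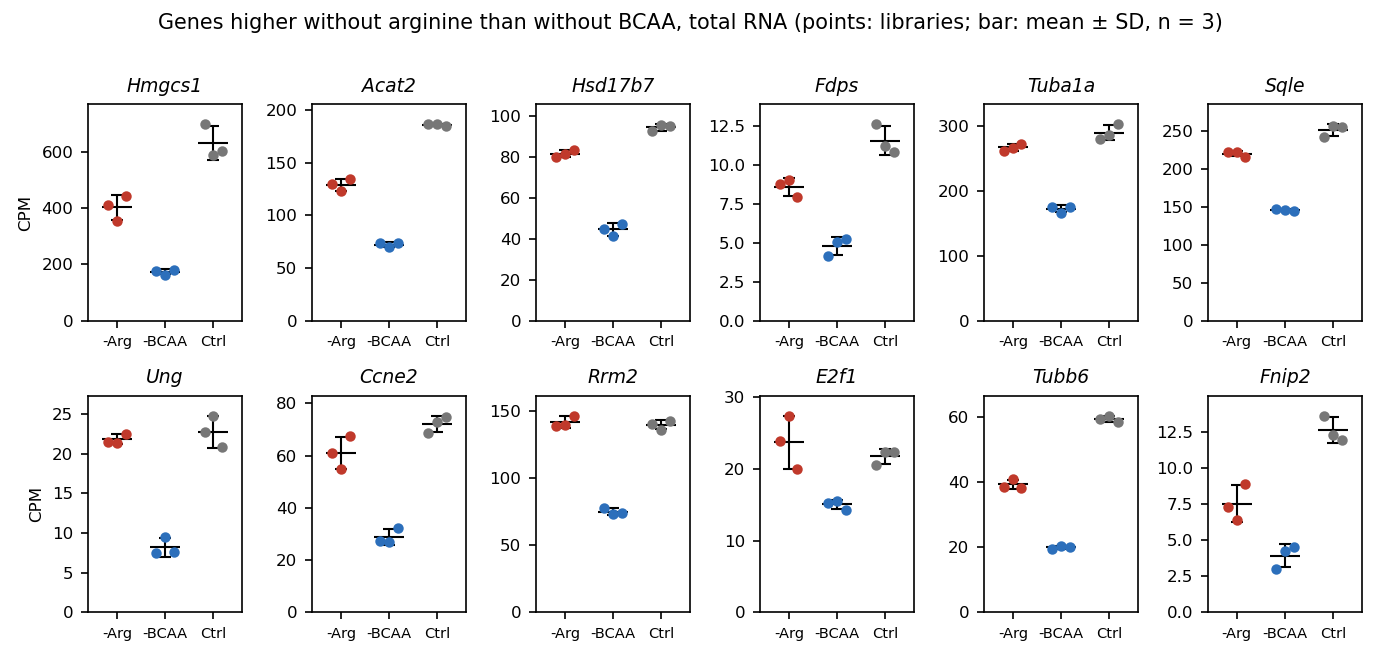
CPM in total RNA of 12 genes that were higher without arginine than without BCAA, with 1 point per library and a bar for the mean ± SD (n = 3) in No Arginine (-Arg), No BCAA (-BCAA) and Control (Ctrl). The No Arginine points lie above every No BCAA point in each panel, and for Ung and Rrm2 they fall within or beside the Control points. Genes named for fold change or p-value were chosen with separated groups, so for them this separation is not a separate result.

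Several genes of the G1 to S transition were higher without arginine. Of 23 cyclins and cell cycle regulators, 10 were higher (43.5%, beside 8.27% over all genes). In that list 1, Plk1 (-0.26 ± 0.08), was lower (4.35%, beside 12%). Ccne2, a cyclin that drives entry into S phase, had 60.9, 54.7 and 67.3 CPM without arginine, against 27.3, 27 and 32.3 CPM without BCAA and 68.7, 72.7 and 74.9 CPM in Control (1.08 ± 0.09, adjusted p = 7.3e-08). Ccne1 (0.62 ± 0.08), the S phase transcription factor gene E2f1 (0.65 ± 0.12), the related repressor E2f8 (0.47 ± 0.11), Myb (0.42 ± 0.08) and the mitotic kinase gene Cdk1 (0.38 ± 0.08) were higher too. Ccna2, Ccnb1, Ccnd3 and Cdc25a completed the 10, between 0.18 and 0.32, and the calls of Ccnd3, Cdc25a and Plk1 were fragile.

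DNA synthesis genes differed at a few places. Ung, the uracil-DNA glycosylase that removes uracil from DNA, had 21.5, 21.4 and 22.6 CPM without arginine, 7.44, 9.54 and 7.58 CPM without BCAA and 22.7, 24.8 and 20.8 CPM in Control. Its No Arginine libraries lay among those of Control and its No BCAA libraries far below (1.42 ± 0.10 between the deprivations, adjusted p = 4.1e-09, 2.67-fold). Rrm2, the regulatory subunit of the enzyme that makes deoxynucleotides, had 138, 139.6 and 146 CPM without arginine, 77.8, 73.3 and 73.9 CPM without BCAA and 139.9, 136 and 143 CPM in Control (0.92 ± 0.06, adjusted p = 8.4e-10). Of 35 replication genes 7 (20%) were higher, Rrm2, Chaf1b, Cdt1, Pcna, Gins2, Dut and Gins4, beside 8.27% over all genes. The calls of the last 5 were fragile, and leaving out any 1 library left 3 or 4 genes higher. In the same list 2 (5.71%) were lower, Prim2 (-0.31 ± 0.08) and Orc6 (-0.29 ± 0.07), a smaller share than the 12% over all genes. The list's median was 0.0224. The Mcm2 to Mcm7 helicase genes were not called. Mitosis genes leaned the other way, with 9 of 28 lower (32.1%, beside 12% over all genes) and 0 higher. Among the lower were the spindle genes Tpx2 (-0.79 ± 0.18), Ndc80 (-0.64 ± 0.09), Prc1 (-0.53 ± 0.09) and Aurka (-0.48 ± 0.06). Mki67, a proliferation marker, was not called (-0.13 ± 0.17).

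Tubulin genes, which encode the subunits of microtubules, were higher in 9 of 15 cases (60%) and lower in 1 (6.67%), with a median of 0.305. Over all genes 8.27% were higher and 12% lower. Tubb6 had 38.6, 40.9 and 38.3 CPM without arginine, against 19.5, 20.4 and 19.9 CPM without BCAA and 59.3, 60.4 and 58.4 CPM in Control (0.97 ± 0.09, adjusted p = 9.7e-08). The abundant Tuba1a (0.63 ± 0.08), Tuba4a (0.59 ± 0.07), Tuba1b (0.50 ± 0.07) and Tubb5 (0.43 ± 0.06) were higher with clear separation. Tubb3, a form best known from neurons, was the lower gene at 6.78, 5.38 and 5.6 CPM without arginine, against 8.69, 8.01 and 7.43 CPM without BCAA (-0.43 ± 0.14), and its call was fragile. Several tubulin genes are near-identical in their coding sequence, so reads may have been split between them.

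The replication-dependent histone genes were lower without arginine by a count that moved with the libraries used. Of 49 tested, 15 were lower without arginine (30.6%, beside 12% over all genes) and 0 higher (median -0.33). Their summed level was 8462, 8426 and 7538 CPM without arginine, against 11640, 12450 and 7957 CPM without BCAA and 3919, 4014 and 3861 CPM in Control. No BCAA replicate 3 lay near the No Arginine libraries and far from the other No BCAA libraries. Without it, 28 of 49 were lower (median -0.553), while leaving out each of the other 5 libraries gave 7 to 11. H2ac8 shows the pattern, with 11.5, 11 and 12 CPM without arginine and 28.7, 29.6 and 11.1 CPM without BCAA (adjusted p = 0.039), and its call was lost when any library other than No BCAA replicate 3 was left out. H1f1, a linker histone, had groups that did not overlap, with 281, 276 and 285 CPM without arginine and 534, 529.6 and 506 CPM without BCAA (-0.90 ± 0.09, adjusted p = 3.0e-07). Beside Control, 48 of 49 were higher in either deprivation, with medians of 1.12 without arginine and 1.49 without BCAA. Histone genes are close copies of one another, so values of single members are uncertain.

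**Figure D4:**
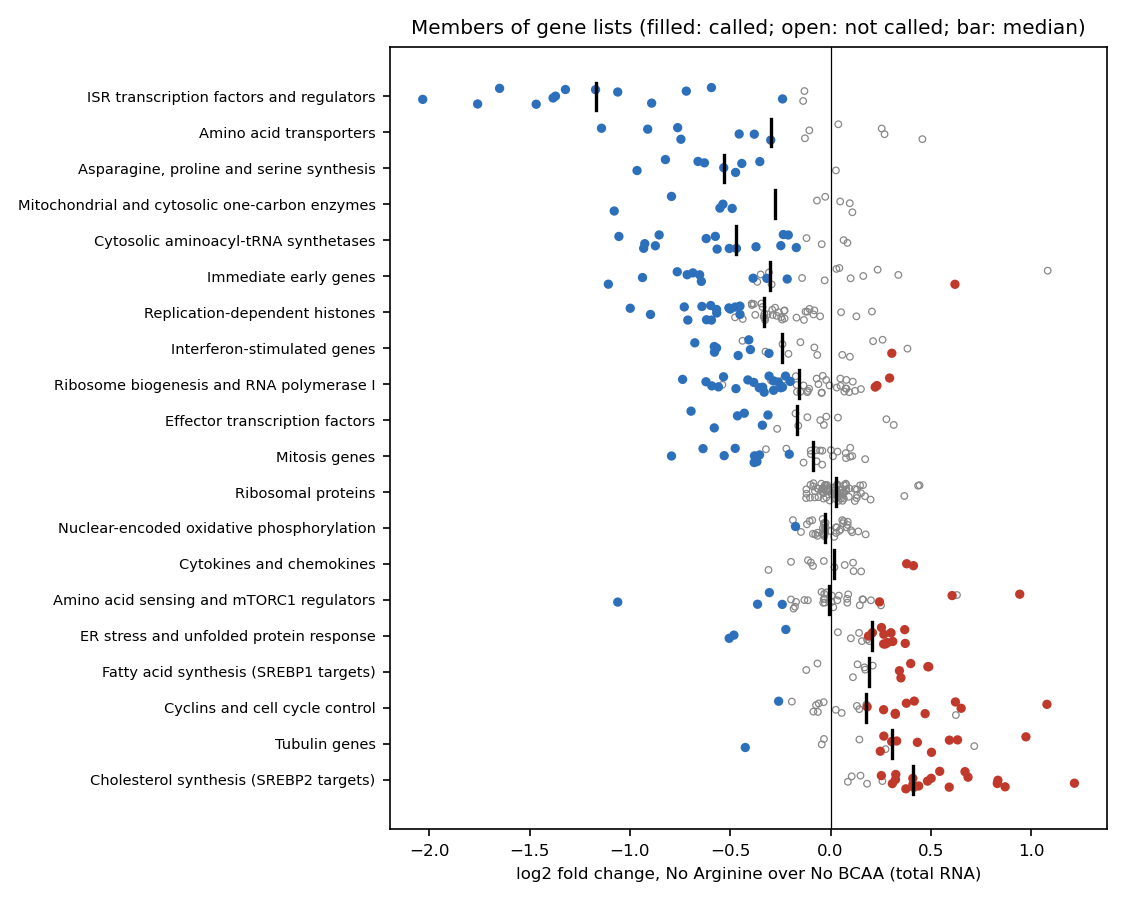
Each row is a gene list and each point a tested member at its log2 fold change in total RNA, No Arginine over No BCAA. Filled points were called (blue lower, red higher without arginine), open points were not, and the black bar is the list's median. Stress, transporter, synthesis and tRNA synthetase lists lie to the left, cholesterol, tubulin and cyclin lists to the right, and ribosomal proteins are gathered around 0.

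Immediate early genes, the first targets of T cell receptor and stress kinase signals, were more often lower than higher. Of 24, 10 were lower (41.7%) and 1 higher (4.17%), beside 12% and 8.27% over all genes. Egr2 had 28.1, 31.3 and 25.4 CPM without arginine, against 60.9, 62.6 and 58.7 CPM without BCAA and 14.6, 13.1 and 13.1 CPM in Control (-1.11 ± 0.08, adjusted p = 3.5e-09). Fos had 7.25, 7.9 and 6.51 CPM without arginine and 13.8, 12.6 and 14.9 CPM without BCAA (-0.94 ± 0.11, adjusted p = 3.6e-06). Neither gene's groups overlapped. The nuclear receptor genes Nr4a1 (-0.76 ± 0.08) and Nr4a3 (-0.65 ± 0.14), the phosphatase gene Dusp4 (-0.71 ± 0.09), Ier5 (-0.69 ± 0.06) and Klf6 (-0.64 ± 0.06) were lower too. Ier3, a survival-related early gene, was the higher member, with 46.2, 52.5 and 39.9 CPM without arginine against 31.1, 32.1 and 26.9 CPM without BCAA (0.62 ± 0.09). Myc, the growth regulator of activated T cells, had 263, 334 and 244 CPM without arginine and 289, 303 and 266 CPM without BCAA with overlapping groups (-0.03 ± 0.10, adjusted p = 0.87).

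Transcription factors of effector differentiation included 6 of 16 lower without arginine (37.5%, beside 12% over all genes) and 0 higher. Prdm1, which encodes BLIMP-1, a driver of terminal effector cells, had 23.7, 23.9 and 24.9 CPM without arginine, against 40, 38.2 and 39.2 CPM without BCAA and 25.5, 24.6 and 24.1 CPM in Control (-0.70 ± 0.10, adjusted p = 3.4e-05). Tbx21, which encodes T-bet, had 131, 137 and 133 CPM without arginine and 211, 203 and 186 CPM without BCAA (-0.58 ± 0.07, adjusted p = 2.2e-06). In both, all No Arginine libraries lay below all No BCAA libraries. Bhlhe40 (-0.46 ± 0.08), Nfil3 (-0.43 ± 0.05), Id2 (-0.34 ± 0.09) and Batf3 (-0.31 ± 0.08) were the other members, of which Id2 and Batf3 had fragile calls.

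Among genes of the killing machinery, Prf1, which encodes the pore-forming protein perforin, had 281, 303 and 253 CPM without arginine, against 163, 184 and 164 CPM without BCAA and 236, 267 and 261 CPM in Control (0.71 ± 0.09, adjusted p = 6.5e-06). Gzmb, the granzyme that perforin delivers, had 8201, 8104 and 7954 CPM without arginine and 6944, 7089 and 7131 CPM without BCAA. Its groups did not overlap, but the difference of 0.20 ± 0.09 was not called (adjusted p = 0.14). The low Gzmm was called lower (-0.94 ± 0.27), a call lost without any of 3 libraries. Prf1 and Gzmm were the only calls among 11 granule genes, 9.09% in each direction beside 8.27% higher and 12% lower over all genes. The granule list as a whole did not stand apart. Ifng, the main effector cytokine, had 1497, 1478 and 1457 CPM without arginine and 1474, 1524 and 1537 CPM without BCAA (-0.03 ± 0.08, adjusted p = 0.83). Among 13 cytokine genes, the death ligand gene Tnfsf10 (0.41 ± 0.07) and the chemokine gene Ccl5 (0.38 ± 0.13) were higher and none was lower. That share was 15.4% higher, beside 8.27% over all genes. The call of Ccl5 was lost without No Arginine replicate 2, among other alternatives.

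Surface and homing genes were called in both directions. The naive and memory list had 2 higher and 2 lower of 15 (13.3% each). The T cell receptor and costimulation list had 4 higher (17.4%) and 3 lower (13%) of 23. Without No Arginine replicate 2 it had 1 higher and 2 lower. Over all genes 8.27% were higher and 12% lower. Ccr7, the lymph node homing receptor, had 329, 365 and 292 CPM without arginine, against 225, 246 and 221 CPM without BCAA (0.51 ± 0.10, adjusted p = 9.1e-04). The survival genes Il7r (-0.30 ± 0.07) and Bcl2 (-0.36 ± 0.08) were lower. The IL-2 receptor chains Il2ra (0.34 ± 0.09) and Il2rb (0.31 ± 0.07) were higher (the call of Il2ra was lost without No Arginine replicate 2), and the costimulatory gene Icos (-0.44 ± 0.06) was lower. Cd8a had 114, 122 and 108 CPM without arginine and 98.7, 104 and 96.4 CPM without BCAA and was not called (0.20 ± 0.08, adjusted p = 0.093). Klrk1, the NKG2D receptor gene carried by activated CD8 T cells as well as NK cells, had 141, 135 and 156 CPM without arginine and 210.2, 203 and 216 CPM without BCAA (-0.54 ± 0.07). Zbtb7b, which encodes ThPOK, a factor of the CD4 lineage, had 10.7, 11.7 and 10.4 CPM without arginine, 19.7, 22.1 and 18.4 CPM without BCAA and 10.6, 12.3 and 10.5 CPM in Control (-0.88 ± 0.10). Other CD4 and NK markers, except Foxp3 at 0 CPM in every No Arginine library, were not analysed here, and the part of other cells in these differences was not tested. In bulk RNA, fewer cells of a type and less RNA per cell cannot be told apart.

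Interferon-stimulated genes were lower in 8 of 21 cases (38.1%) and higher in 1 (4.76%), with a median of -0.24. Over all genes 12% were lower and 8.27% higher. Irf9 had 37.1, 36.3 and 42.7 CPM without arginine, against 52, 51.3 and 50.9 CPM without BCAA, with no overlap. Irf1 (-0.40 ± 0.07), Irf9 (-0.41 ± 0.07) and the guanylate-binding protein genes Gbp4 (-0.46 ± 0.07) and Gbp6 (-0.68 ± 0.13) were among the lower members, and Irgm1 was the higher one (0.31 ± 0.08). Glycolysis genes and targets of hypoxia signalling gave 6 lower (21.4%) and 1 higher (3.57%) of 28 entries, with a median of -0.0997. The lower ones included the growth factor gene Vegfa, with 95, 97.1 and 88.8 CPM without arginine and 166, 174 and 167 CPM without BCAA (-0.85 ± 0.06, adjusted p = 1.5e-09), and Ndrg1 (-0.84 ± 0.06). Hk2, hexokinase 2 and the entry step of glycolysis, was lower (-0.58 ± 0.16) with a fragile call. The glycolytic enzyme genes Ldha (-0.07 ± 0.06) and Pkm (-0.14 ± 0.07) and the glucose carrier Slc2a1 (-0.13 ± 0.09) were not called.

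Of 21 genes of endoplasmic reticulum folding and stress, 11 were higher (52.4%) and 3 lower (14.3%) without arginine, beside 8.27% and 12% over all genes. The chaperone genes Hsp90b1 (0.31 ± 0.08), Calr (0.26 ± 0.09), Pdia3 (0.27 ± 0.07), Pdia6 (0.28 ± 0.08), Manf (0.30 ± 0.10) and Sdf2l1 (0.37 ± 0.10) were higher by small amounts, and of these every call but that of Pdia3 was fragile. Herpud1, a degradation adaptor that ATF4 also induces, had 200.5, 212 and 209 CPM without arginine and 285, 306 and 292 CPM without BCAA (-0.51 ± 0.06). It was lower, as were the sensor Atf6 (-0.48 ± 0.06) and the transcription factor Xbp1 (-0.22 ± 0.07). The list had 6 genes called higher without No Arginine replicate 1 or 2, 4 without No BCAA replicate 1 and 5 without No BCAA replicate 3. The call of Xbp1 was fragile. The NRF2 and glutathione list had 3 lower (17.6%) and 1 higher (5.88%) of 17, with 13 above 0 and a median of 0.0684. The lysosome and autophagy list had 3 lower (11.5%) and 1 higher (3.85%) of 26, with 17 above 0 and a median of 0.0759. Over all genes 12% were lower and 8.27% higher, so members of these lists are given below as single genes. The oxidative stress genes Hmox1 (-0.94 ± 0.08), Srxn1 (-0.75 ± 0.08) and Nfe2l2 (-0.51 ± 0.07), and the autophagy receptor Sqstm1 (-0.73 ± 0.06), were lower without arginine. Plk2, a polo-like kinase gene that p53 can induce, had 111, 110.2 and 120.1 CPM without arginine and 234, 229 and 238 CPM without BCAA (-1.04 ± 0.06, adjusted p = 2.7e-10).

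Ribosomal protein mRNAs were called in polysome RNA and not in total RNA. In total RNA 0 of 82 were called in either direction, the median was 0.0256, and their summed level was 141200, 137600 and 134800 CPM without arginine, against 136800, 140900 and 130600 CPM without BCAA. In polysome RNA of the same lysates, 59 of 81 were lower without arginine and 0 higher, with a median of -0.402, where 20.2% of 12417 genes tested were lower and 13.8% higher. The test of total against polysome change was not run here, and this list's polysome count was not recomputed under other settings. Over all genes, RLE size factors gave 2057 higher and 2205 lower in polysome RNA, where the main fit gave 1718 and 2514. In total RNA, over all genes 12% were lower and 8.27% higher. Genes for making ribosomes gave 19 lower (36.5%) and 3 higher (5.77%) of 52 there (median -0.159), led by Taf1a (-0.74 ± 0.09). Nop56 of the same list had 321, 312 and 345 CPM without arginine and 449.9, 453 and 453 CPM without BCAA (-0.47 ± 0.06). Without No Arginine replicate 2 that list had 9 lower, and without No Arginine replicate 1 or No BCAA replicate 3 it had 11. Of the hosts of small nucleolar RNAs, which are spliced noncoding transcripts, 6 of 15 were lower (40%) and 1 was higher (6.67%). Their median was -0.119, with 9 below 0 and 6 above, and values ran from -1.1 to 1.17. Snhg1 had 299.9, 304 and 325 CPM without arginine, 643, 618 and 615 CPM without BCAA and 166, 183 and 196 CPM in Control (-1.01 ± 0.09, adjusted p = 1.2e-07).

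The total RNA differences were mostly present in polysome RNA as well. Of the 1522 genes lower in total RNA, all were tested in polysome RNA and 1226 (80.6%) were lower there, with 6 higher. Of the 1045 genes higher in total RNA, 1026 were tested and 679 (66.2%) were higher, with 5 lower. Over all genes tested in polysome RNA, 20.2% were lower and 13.8% higher. Both pools come from the same lysates and are not independent. Ddit3 was -2.29 ± 0.08 in polysome RNA, Trib3 -1.59 ± 0.08, Atf4 -0.53 ± 0.07, Hmgcs1 1.14 ± 0.10 and Ung 1.27 ± 0.10. The 5 genes higher in total and lower in polysome RNA, named after their values were seen, were Tgds, Hsp90ab1, Slc35a3, Arl2bp and Tipin, and the total RNA call was fragile in all 5. Hsp90ab1, a chaperone gene, was 0.18 ± 0.06 in total RNA and -0.35 ± 0.08 in polysome RNA. Rn18s-rs5, which rested on No Arginine replicate 2, was 1.78 ± 0.45 in total RNA and -0.08 ± 0.67 in polysome RNA. Without that library 0 of 8 rRNA-derived and abundant small RNA entries were called, where the full comparison called 5 higher.

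**Figure D5:**
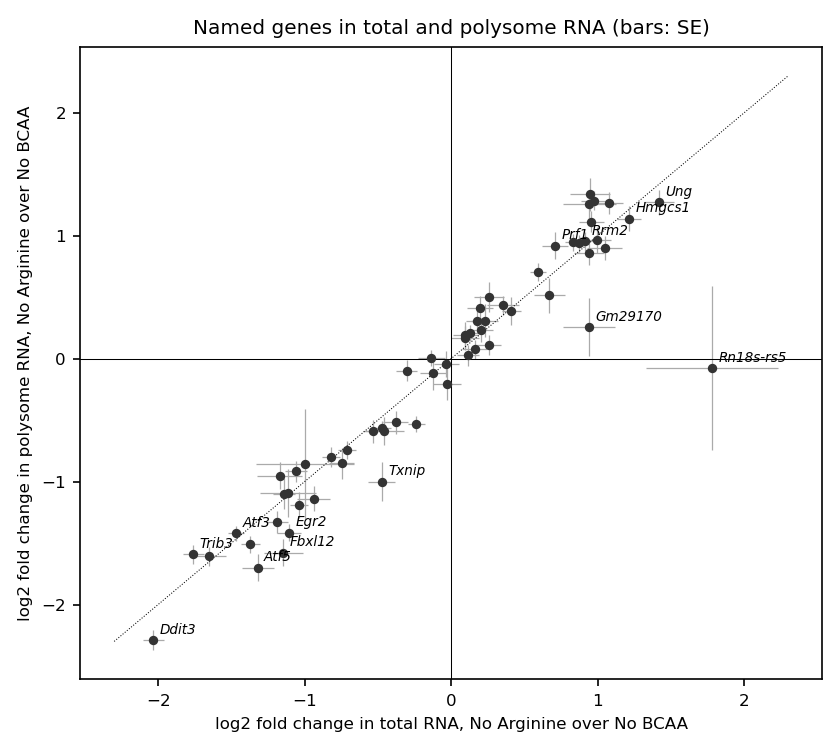
Log2 fold changes, No Arginine over No BCAA, of the genes named for their size, p-value or defining role, in total RNA (horizontal) and polysome RNA (vertical), with SE bars and a dotted line of equality. Most points lie near the line, from Ddit3 at -2.03 and -2.29 to Ung at 1.42 and 1.27, and Rn18s-rs5 and Gm29170 lie away from it.

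Several of the most different genes belonged to none of the lists. Cyb5r1, a reductase gene, had 36.2, 39.7 and 33.8 CPM without arginine, against 84.2, 87.9 and 77.7 CPM without BCAA (-1.19 ± 0.07, adjusted p = 8.2e-10). Fbxl12, a ubiquitin ligase subunit gene, had 5.06, 7.97 and 7.5 CPM without arginine and 15.7, 15.6 and 13.4 CPM without BCAA (-1.15 ± 0.13), and Tnks1bp1 had 12.8, 10.5 and 11.7 CPM without arginine and 27.1, 23.6 and 25.3 CPM without BCAA (-1.11 ± 0.19). All of these were lower without arginine. On the higher side were Tshz1 (1.05 ± 0.12), the MAP kinase phosphatase gene Dusp7 (1.00 ± 0.10), the zinc carrier gene Slc39a10 (0.96 ± 0.09), the Hedgehog receptor gene Ptch1 (0.94 ± 0.10) and the noncoding entries D430020J02Rik (0.95 ± 0.13) and Gm29170 (0.94 ± 0.18). Slc39a10 had 35.9, 35.8 and 34.9 CPM without arginine and 16.5, 17.9 and 20.4 CPM without BCAA. Ptch1 had 26.3, 27.5 and 23.8 CPM without arginine and 13.5, 13.5 and 13.4 CPM without BCAA. The genes of this paragraph were named only where the groups did not overlap, so their separation is not a separate result.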

How the data were processed

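The deposited counts are whole-number reads per gene, which the authors made from sequencing reads of cleared lysates. Per the submitters' processing notes, FastQC, MultiQC, Trimmomatic, STAR, HTSeq and edgeR were used with build GRCm39, and roles, settings and the library kit are not given in the sources used here. Genes were filtered with filterByExpr (minimum count 10) and scaled by TMM, so CPM and fold changes are relative to each library's total. The edgeR quasi-likelihood test (edgeR 4.0.16, limma 3.58.1, R 4.3.3) was fitted over all 18 total RNA libraries of 6 nutrient groups, so that groups share the estimate of spread, with Benjamini-Hochberg adjustment over all genes tested and a threshold of 0.05. Polysome RNA was fitted in the same way on its own, and the 18 monosome libraries were not analysed here. DESeq2 1.42.0 was an alternative.

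The lists and members were chosen with earlier results of these data known. Named were the 12 genes with the largest fold change and the 5 with the lowest p in each direction at 5 CPM or more with separated groups, and up to 6 members per list with defining members. List members named beyond this were chosen after their values were seen. Same-numbered libraries of different groups had residual correlations of -0.0793 to 0.223 over 45 pairs, 7 of them over 0.1. Between No Arginine and No BCAA they were -0.00993, 0.139 and 0.162 for replicates 1 to 3. The main fit did not treat the numbers as pairing the samples, and a fit with them as a block is given below. Protein composition was not computed, since no protein sequences were used. Some genes are not reported here.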

Additional observations from a re-analysis of the deposited data

How the results depend on the processing

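The calls kept their number within 1.5 times under RLE size factors, no filter, a minimum count of 50, only the 6 libraries, removal of rRNA entries and DESeq2, with 953 to 1165 genes higher and 1474 to 1545 lower and 2332 to 2555 of the genes shared with the 2567 called. With the replicate number as a block, 1202 were higher and 1685 lower, and 2558 were shared. In polysome RNA the main fit gave 1718 higher and 2514 lower, RLE size factors 2057 and 2205, and the block 2013 and 2888. There, leaving out each library gave 1284 to 1683 higher and 1959 to 2318 lower. In total RNA, leaving out each library in turn gave 628 to 1016 genes higher and 1081 to 1479 lower. The same exercise gave 7 to 28 histone genes lower, 4 to 10 endoplasmic reticulum genes higher and 9 to 21 ribosome biogenesis genes lower. With the block these lists had 16, 12 and 22, and the ISR list 13 lower. The share of calls that were higher lay between 35.5% and 43.5% in all settings for total RNA. Of 302 genes tested by name, 213 were called, 151 kept the call under every alternative and 62 lost it under 1 or more. Among these genes the sign of the log2 fold change turned in uncalled ones only, with a library left out. Over the 6 such fits, Pf4 lay between -0.47 and 0.24 (positive without No BCAA replicate 1) and Ighm between -0.013 and 0.12 (negative without No Arginine replicate 2). Cd68 lay between -0.019 and 0.22 (negative without No BCAA replicate 3), and Ddit4 between -0.26 and 0.00084 (positive without No BCAA replicate 2). Myc lay between -0.17 and 0.060, positive without No Arginine replicate 1 (0.013), No Arginine replicate 3 or No BCAA replicate 2 (0.015). The cause of these shifts was not tested.

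Fragile calls among the genes named above fell as follows. Calr, Hsp90ab1, Dut and Gins4 were lost without any single library, and Gins2 and Arl2bp without any but No Arginine replicate 3. Bckdk, Fasn, Manf, Mtor, Rraga, Rars1, Xbp1 and Ccl5 were lost without No Arginine replicate 1 or 2 or No BCAA replicate 1 or 3, and Dbt without No Arginine replicate 1 or 2 or No BCAA replicate 3. Bcat2 was lost without No Arginine replicate 2 or any No BCAA library, Cdc25a without any library but No BCAA replicate 1, and Plk1 without No Arginine replicate 1 or 3 or No BCAA replicate 1 or 2. When only the 6 libraries were fitted, Bcat2, Cdc25a, Dbt, Plk1, Rars1, Rraga, Lars2, mt-Rnr1 and Rad23b also lost their calls. Tubb3 was lost without No Arginine replicate 2 or 3 or No BCAA replicate 1 or 2, Gzmm without No Arginine replicate 2 or No BCAA replicate 2 or 3, and Pdia6 and Cdt1 without No Arginine replicate 1 or No BCAA replicate 1 or 3. Batf3 and Pcna were lost without No Arginine replicate 3 or No BCAA replicate 2, Slc35a3 also without No Arginine replicate 1, Tipin without any library but No Arginine replicate 2, Tgds without No BCAA replicate 2, Hk2 without No Arginine replicate 1 or 2 or No BCAA replicate 1, Ccnd3 without No Arginine replicate 2 or No BCAA replicate 3, Id2 and Sdf2l1 without No BCAA replicate 3, Hsp90b1 without No BCAA replicate 1, Pycr1 without No Arginine replicate 1, and Il2ra, Lars2 and Rn18s-rs5 without No Arginine replicate 2.

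With 3 libraries a group, small differences such as those of the folding genes are at the limit of what the test calls, and No Arginine replicate 2 is both the shallowest library and the one with the most rRNA. Whether the libraries are separate cultures is not stated, and total and polysome RNA share lysates.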

Other observations

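The direction of the deprivations around Control differed between gene groups in ways the direct comparison does not show, and all values here share the same Control libraries. Fnip2 was below Control in both deprivations (-0.73 ± 0.16 without arginine and -1.67 ± 0.17 without BCAA), as was Tubb6 (-0.60 ± 0.08 without arginine and -1.57 ± 0.09 without BCAA) and Ier3 (-0.81 ± 0.08 without arginine and -1.43 ± 0.09 without BCAA). Tpx2 was not called against Control without arginine (-0.19 ± 0.18) and stood at 0.61 ± 0.18 without BCAA. Its Control libraries were spread, at 93.6, 48.1 and 52.8 CPM, and no fit left out a Control library. Nop56 was below Control without arginine (-0.30 ± 0.06) and above it without BCAA (0.18 ± 0.06).

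Of the genes lower in total RNA, 6 were higher in polysome RNA, among them Rad23b, Ubap1 and Vps4a, which were named after their values were seen. Rad23b was -0.16 ± 0.05 in total RNA, a call lost without any library but No Arginine replicate 3, and 0.20 ± 0.07 in polysome RNA, Ubap1 -0.34 ± 0.07 in total and 0.22 ± 0.06 in polysome RNA, and Vps4a -0.26 ± 0.07 in total and 0.18 ± 0.07 in polysome RNA. The difference between the RNA pools was not tested.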
